A study of Mus musculus with 2 samples.

Results

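The genes described here were 10 of the 22620 genes counted in both libraries, and they belong to the bone morphogenetic protein (BMP) and transforming growth factor beta (TGF-beta) pathways. They were the ligand genes Bmp4, Tgfb1, Tgfb2 and Tgfb3, the receptor gene Tgfbr2, the inhibitory Smad genes Smad6 and Smad7, and Id1, Id2 and Id3. They were taken by symbol, with their raw UMIs (unique molecular identifiers, each standing for 1 captured transcript) in the cell types of primary tumour and lymph node, and with the cancer cells of both sites set against each other. The levels of Id1, Id2 and Id3 in cancer cells were among the measured values that led to this choice, so the differences between the cancer cells of the sites are given as a description and support nothing further.

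The cells came from C57BL/6J mice bearing tumours of EO771-HEVM3, a fluorescent derivative of the murine mammary cancer line EO771 that was obtained by 3 rounds of selection in vivo. Primary tumours and their paired lymph nodes of 6 mice were pooled into 2 libraries, 1 per tissue, and nothing ties a cell to its mouse. With 1 library per group no difference has a replicate check, no test was run, and each 95% interval in brackets covers counting error only. The labels name no engineered allele and no treatment. Tumours were dissociated with collagenases and hyaluronidase and lymph nodes with collagenase P, dispase and DNase for a shorter time, so that tissue and dissociation cannot be told apart.

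Ligands of the BMP branch bind paired receptor kinases at the cell surface, which phosphorylate Smad1 and Smad5, and the complex with Smad4 then switches on target genes, Id1, Id2, Id3, Smad6 and Smad7 among them. Id proteins lack a DNA-binding region and hold basic helix-loop-helix partners, such as the products of Tcf3, Tcf4 and Tcf12, away from DNA. The TGF-beta branch signals through the receptors encoded by Tgfbr1 and Tgfbr2 to Smad2 and Smad3, and TGF-beta is known in tumours and lymph nodes for its restraint of T cells and its action on fibroblasts. Smad6 and Smad7 encode brakes of these pathways.

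In GRCm38 coordinates the genes lay at chr2:152736251-152737410 (Id1, plus strand), chr12:25093799-25097140 (Id2, minus), chr4:136143497-136145755 (Id3, plus) and chr9:63953076-64022059 (Smad6, minus). Bmp4 lay at chr14:46383520-46390669 (minus), Tgfb1 at chr7:25687002-25705077 (plus), Tgfb2 at chr1:186622792-186705989 (minus), Tgfb3 at chr12:86056745-86079041 (minus) and Tgfbr2 at chr9:116084293-116175360 (minus). No annotated gene overlapped any of the 10 genes on the same strand. Bmp4, Tgfb2 and Tgfb3 overlapped genes on the opposite strand, Ttll5 in the case of Tgfb3.

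Sequence upstream of the start was found in RefSeq (GRCm38.p6) for 7 of the 10 genes, namely Bmp4, Id2, Id3, Smad6, Tgfb1, Tgfb2 and Tgfbr2. It is shown for Id2 and Smad6, which were higher in lymph node cancer cells, and for Bmp4, a BMP ligand gene that was not. Both strands of the 250 bases before the start were searched for GGCGCC, a BMP-Smad type motif that is its own reverse complement, and for GTCTG (reverse complement CAGAC), which holds the core bases read by Smad proteins. The capitals mark GGCGCC, the first base of which lay 231 bases before the RefSeq start of Id2. The Id2 run (chr12:25096254-25096342, minus strand) is limited to the 89 bases that no annotated exon covers, and it lies in an intron of the longest annotated Id2 transcript. The Smad6 run (chr9:64022060-64022309, minus strand) and the Bmp4 run (chr14:46390670-46390919, minus strand) are the 250 bases that end at the start of each gene.
Id2: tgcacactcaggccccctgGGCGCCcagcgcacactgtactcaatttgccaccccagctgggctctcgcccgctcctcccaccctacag
Smad6: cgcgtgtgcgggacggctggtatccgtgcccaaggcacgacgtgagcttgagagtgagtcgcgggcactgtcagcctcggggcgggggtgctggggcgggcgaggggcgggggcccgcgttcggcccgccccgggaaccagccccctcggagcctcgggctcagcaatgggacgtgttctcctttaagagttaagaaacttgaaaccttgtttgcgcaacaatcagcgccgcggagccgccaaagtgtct
Bmp4: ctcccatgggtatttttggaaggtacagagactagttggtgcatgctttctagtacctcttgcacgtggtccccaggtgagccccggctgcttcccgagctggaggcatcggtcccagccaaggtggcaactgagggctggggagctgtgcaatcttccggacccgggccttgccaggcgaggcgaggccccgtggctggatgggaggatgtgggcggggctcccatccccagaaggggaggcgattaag

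GGCGCC was found in 1 of the 7 windows, that of Id2, and in 9.59% of 32851 windows of this length over all genes. GTCTG or CAGAC was found in the windows of Id3, Tgfb2 and Tgfbr2, and in 42.2% of all windows. These matches describe the letters of the windows alone.

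The deposited libraries held 12427 primary tumour cells with 173317475 UMIs and 11617 lymph node cells with 122207852 UMIs. Cell limits and doublet removal kept 8756 (70.5%) and 9689 (83.4%) of them, with medians of 9383 and 2324 UMIs per cell, and 47 cell barcodes occurred in both libraries. Clusters were named from marker genes, and 6 of 37 clusters stayed unnamed. There were 6124 cancer cells from the primary tumour and 618 from the lymph node. The summed level of their 9 epithelial markers was 4789 and 5362 counts per 1000000 UMIs (CPM), most of it from Krt8, Krt18 and Krt19. No marker was at 0, but the lowest stood at 0.268 and 0.197 CPM. Their median depths were 14052 and 34822 UMIs per cell, so levels are given as CPM of summed UMIs and shares of cells after thinning every cell to 1000 UMIs.

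Cancer cells of the lymph node held more Id1, Id2 and Id3 transcripts, as a share of all UMIs, than those of the primary tumour, by 3.73-fold, 3.02-fold and 4.14-fold. Smad6 was 2.38-fold higher at a low level. The ligand genes Bmp4 and Tgfb1, the receptor gene Tgfbr2 and the brake Smad7 differed by no more than 1.11-fold in either direction, and Tgfb2 and Tgfb3 were near the floor of detection in cancer cells of both sites.

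Id1, a widely used readout of BMP signalling, stood at 340.1 CPM (33035 UMIs) in primary tumour cancer cells and at 1269 CPM (25746 UMIs) in lymph node cancer cells, a log2 ratio of 1.90 [1.88 to 1.92]. Id2, which also acts in the development of innate lymphoid cells, was at 103 CPM (9963 UMIs) and 309 CPM (6280 UMIs), a log2 ratio of 1.59 [1.55 to 1.64]. Id3, a regulator of lymphocyte differentiation as well, was at 124 CPM (12072 UMIs) and 515 CPM (10450 UMIs), a log2 ratio of 2.05 [2.01 to 2.09]. The 3 Id genes were thus higher in the lymph node together, and their intervals lay above 1 on the log2 scale. Smad6 was at 6.18 CPM (600 UMIs) and 14.7 CPM (298 UMIs), a log2 ratio of 1.25 [1.04 to 1.45].

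Of the other members, Bmp4, Smad7, Tgfb1 and Tgfbr2 gave ratios near 1. Bmp4, the BMP ligand, was at 28.3 CPM (2745 UMIs) in the primary tumour and 26.1 CPM (529 UMIs) in the lymph node, a log2 ratio of -0.12 [-0.25 to 0.02]. Smad7, the brake shared by both branches, was at 179 and 165 CPM, a log2 ratio of -0.11 [-0.17 to -0.06]. Tgfb1, the most widely expressed TGF-beta ligand gene, was at 69.6 and 63.1 CPM, a log2 ratio of -0.14 [-0.23 to -0.06]. The brake Smad7 therefore did not go with the Id genes and Smad6, although all 5 are known BMP targets. Tgfbr2, which encodes the ligand-binding TGF-beta receptor, was at 39.6 and 44.0 CPM, a log2 ratio of 0.15 [0.05 to 0.26]. The remaining ligand genes were sparse, with 54 and 14 UMIs of Tgfb2, a log2 ratio of 0.35 [-0.65 to 1.18], and 18 and 13 UMIs of Tgfb3, a log2 ratio of 1.80 [0.64 to 2.90].

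Counted with a bound of 2-fold, 5 of the 10 genes were higher in the lymph node and 0 lower. These were Id1, Id2, Id3, Smad6 and Tgfb3. As set out below, none of Id1, Id2, Id3 and Smad6 passed the bound without the cluster that held 82.5% of the lymph node cancer cells. Of the 8 members that reached 100 UMIs in 1 of the libraries or both, 4 were higher, against 4.64% of the 10740 genes that did so, and 9.43% of those genes were lower. The choice of the members used this contrast, so nothing is read from the difference between these shares. The member nearest to the bound from above was Smad6 at 1.25. The nearest from below, at some distance, was the sparse Tgfb2 at 0.35. The median log2 ratio was 0.80 over the 10 members and -0.18 over the 10740 genes. Set relative to that median, Id1 was at 2.08, Id2 at 1.77, Id3 at 2.23 and Smad6 at 1.43. On this scale the signs of Bmp4 (0.07), Smad7 (0.07) and Tgfb1 (0.04) turned positive.

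**Figure D1:**
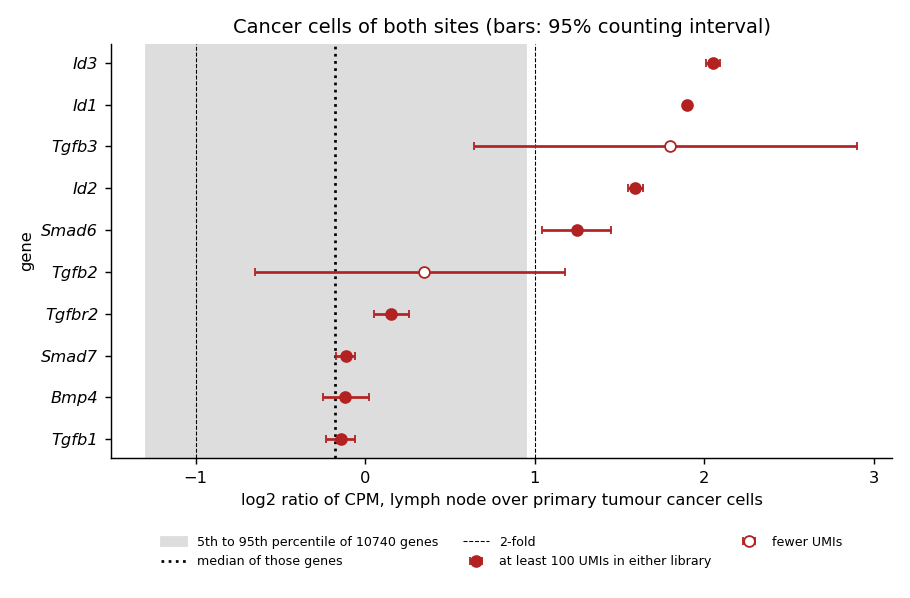
Log2 ratio of CPM in cancer cells, lymph node over primary tumour, for each of the 10 genes, with bars for the 95% counting interval, open points for genes below 100 UMIs, and a grey band for the 5th to 95th percentile of 10740 genes. Id1, Id2, Id3 and Smad6 lie between 1.25 and 2.05, Bmp4, Smad7, Tgfb1 and Tgfbr2 lie between -0.14 and 0.15, and the wide bars of Tgfb2 and Tgfb3 come from 14 and 13 lymph node UMIs.

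Most cancer cells of the lymph node were on the high side of the primary tumour values. Counted per 10000 UMIs of a cell, the median of Id1 was 2.12 in primary tumour cells and 12.1 in lymph node cells, and 85.1% of the lymph node cells lay above the primary tumour median. For Id2 the medians were 0.382 and 2.73, with 87.2% above. For Id3 they were 0.275 and 4.56, with 88.2% above. Depth enters these medians and shares, since 46.8% and 49.5% of the primary tumour cells held 0 UMIs of Id2 and Id3, and the means of single-cell CPM gave log2 ratios of 1.46 for Id2 and 2.01 for Id3. The distributions still overlapped, as 70.2%, 46.0% and 61.3% of the lymph node cells exceeded the 90th percentile of the primary tumour for Id1, Id2 and Id3.

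Transcripts of all 3 Id genes were found in 83.8% of the lymph node cancer cells and in 31.9% of those of the primary tumour, while 3.07% and 13.1% held none of them. The deeper sampling of the lymph node cells moves with these shares. After thinning to 1000 UMIs, Id1 was found in 61.3% [57.3 to 65.2] of the lymph node cancer cells and in 24.1% [23.1 to 25.2] of those of the primary tumour, with 11 and 85 shallower cells left out. The thinned shares were 24.7% and 9.40% for Id2, and 35.8% and 10.0% for Id3. The higher shares of Id genes in the lymph node were thus also present at equal depth. Free RNA can add to such shares and was not measured. Lymph node T cells and B cells, with median depths of 2991 and 1793 UMIs, held Id1 in 2.32% and 3.27% of thinned cells.

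**Figure D2:**
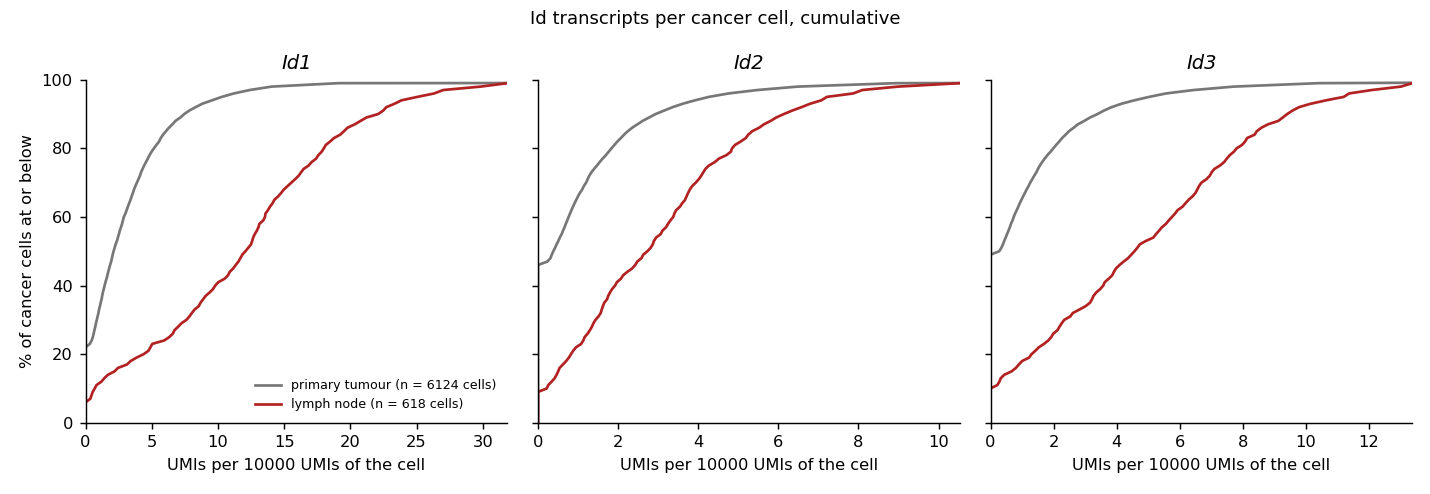
Cumulative share of cancer cells, in percent, at or below a given number of UMIs of Id1, Id2 and Id3 per 10000 UMIs of the cell, by library, at median depths of 14052 (primary tumour) and 34822 UMIs (lymph node). The lymph node medians of 12.1, 2.73 and 4.56 lie above the primary tumour medians of 2.12, 0.382 and 0.275, and the ranges of both libraries overlap.

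The differences in Id1 and Smad6, and most of those in Id2 and Id3, rested on 1 cluster. Of the 618 lymph node cancer cells, 510 (82.5%) fell in cluster 23, together with 2 cells of the primary tumour. Its leading genes were taken over the other lymph node clusters, most of which held immune or endothelial cells. They included the trefoil factor gene Tff2, the keratin genes Krt19 and Krt7, and Id1. Tff2, Krt19 and Krt7 also stood among the leading genes of cancer cell clusters within the primary tumour. The member genes and pathway genes had been left out of the variable genes that defined the clusters. In cluster 23 Id1 was at 1382 CPM [1365 to 1399], Id2 at 326, Id3 at 557 and Smad6 at 15.7 CPM. Each was above its level in every other cancer cell cluster with at least 20 cells of a library, although for Smad6 the interval overlapped that of the 31 lymph node cells in cluster 3. A cluster that holds nearly 1 library alone cannot be told apart from that library.

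Where cancer cells of both libraries shared a cluster the levels were closer. In cluster 5, led by Tff1 and Tff2, Id1 was at 254 CPM [246 to 262] in 1007 primary tumour cells and at 247 CPM [222 to 275] in 60 lymph node cells. Id2 was at 121 CPM [116 to 127] and 165 CPM [144 to 188]. Id3 was at 90.6 CPM [85.9 to 95.5] and 146 CPM [127 to 168]. Within this cluster Id2 and Id3 were therefore higher in the lymph node, by less than over all cancer cells, and Id1 was level. Smad6 was at 5.03 CPM and 5.87 CPM, with 77 and 8 UMIs.

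In cluster 3, led by the epithelial transcription factor gene Elf3, Id1 was at 267 CPM in 2078 primary tumour cells and at 332 CPM in 31 lymph node cells of a median depth of 1381 UMIs. Without the lymph node cell that held most UMIs of the gene, the level was 241 CPM. Id2 was at 79.6 and 144 CPM, and at 109 CPM without that cell. Id3 was at 77.9 and 97.5 CPM, and at 60.2 CPM without that cell. The lymph node values for Id1 and Id3 in cluster 3 thus fell below those of the primary tumour once 1 cell was left out.

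Over the shared clusters 3 and 5 together, the log2 ratio was 0.00 for Id1, 0.73 for Id2, 0.73 for Id3 and 0.23 for Smad6. Over all cancer cells outside cluster 23, a choice made after the data were seen, it was -0.43 for Id1, 0.61 for Id2, 0.15 for Id3 and -0.01 for Smad6. Among primary tumour clusters the Id1 level ran from 254 CPM in cluster 5 to 423 CPM in cluster 1, the Id2 level from 59.2 to 154 CPM and the Id3 level from 77.9 to 175 CPM. The Id1 levels of primary tumour clusters thus all lay below that of cluster 23, while single primary tumour cells reached beyond it.

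**Figure D3:**
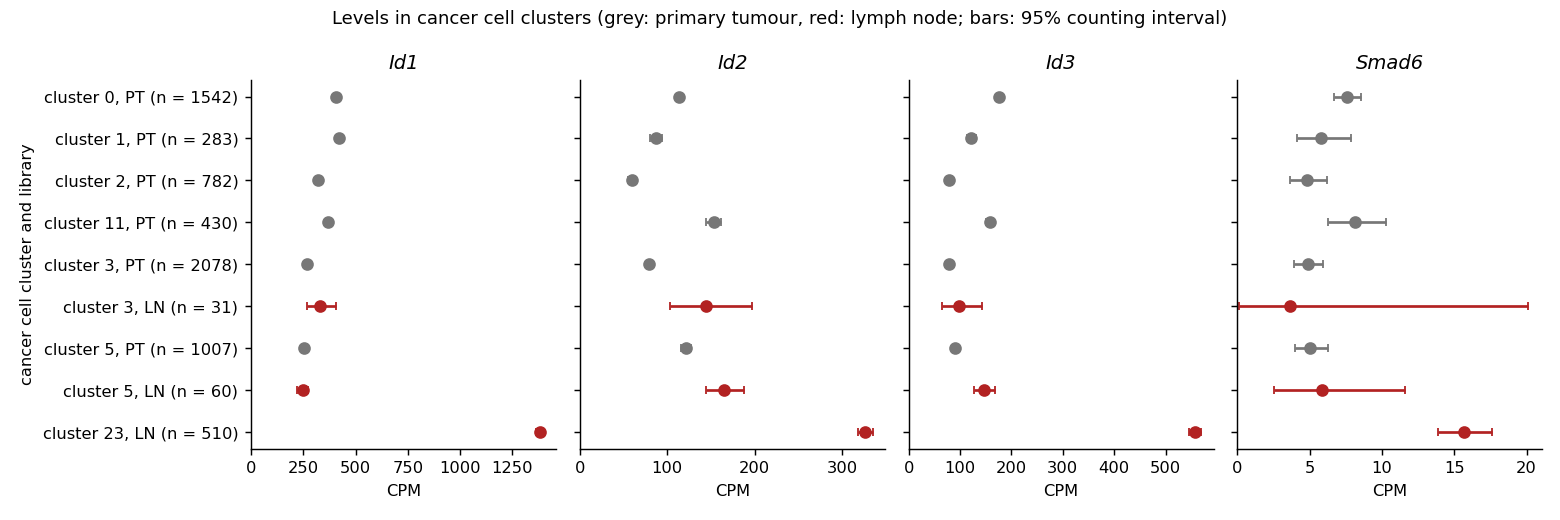
Levels in CPM of Id1, Id2, Id3 and Smad6 in each cancer cell cluster and library with at least 20 cells, with bars for the 95% counting interval. The 510 lymph node cells of cluster 23 stand at 1382, 326, 557 and 15.7 CPM, whereas the 60 lymph node cells of cluster 5 stand near the primary tumour cells of the same cluster for Id1.

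Transcripts of marker genes of other cell types were also found in the cancer cells. The summed level of 6 B cell markers was 3.62 CPM (primary tumour) and 47.4 CPM (lymph node), and that of 7 T cell markers 27.3 and 76.8 CPM. That of 7 endothelial markers was 6.79 and 21.5 CPM, with Cldn5 at 0 in the lymph node. The highest marker gave 44 CPM of the T cell sum and 17.2 CPM of the endothelial sum in the lymph node. Of 6 fibroblast markers, which summed to 1039 and 1121 CPM, the highest gave 1033 and 1119 CPM. The levels of Id1 in lymph node B cells (31.1 CPM) and T cells (21.0 CPM) were below the level in the cancer cells. Id2 was at 22.7 CPM in these B cells and 130.4 CPM in these T cells, below its 309 CPM in lymph node cancer cells. In lymph node dendritic cells (1010 CPM) and NK cells (909 CPM) Id2 was above that level. The source of these marker transcripts, and the part of RNA from other cells in the cancer cell ratios, were not tested.

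The ratios were also taken within cell cycle classes, a choice made after the data were seen. These classes are phase calls from scored gene lists and are not read as cycling. Among cells called G1 the log2 ratio was 1.94 for Id1, 1.39 for Id2, 2.21 for Id3 and 1.27 for Smad6. Among cells called S or G2M it was 1.80, 1.59, 1.82 and 1.13. The 4 genes were higher in the lymph node in both classes. Bmp4 differed between them in sign, with -0.69 in G1 cells and 0.40 in S or G2M cells, and so did Smad7, with -0.54 and 0.39.

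The members differed in which cell classes held them. The level of each in all classes with at least 20 cells in a library, 19 in number, is shown in the plot of levels by class.

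**Figure D4:**
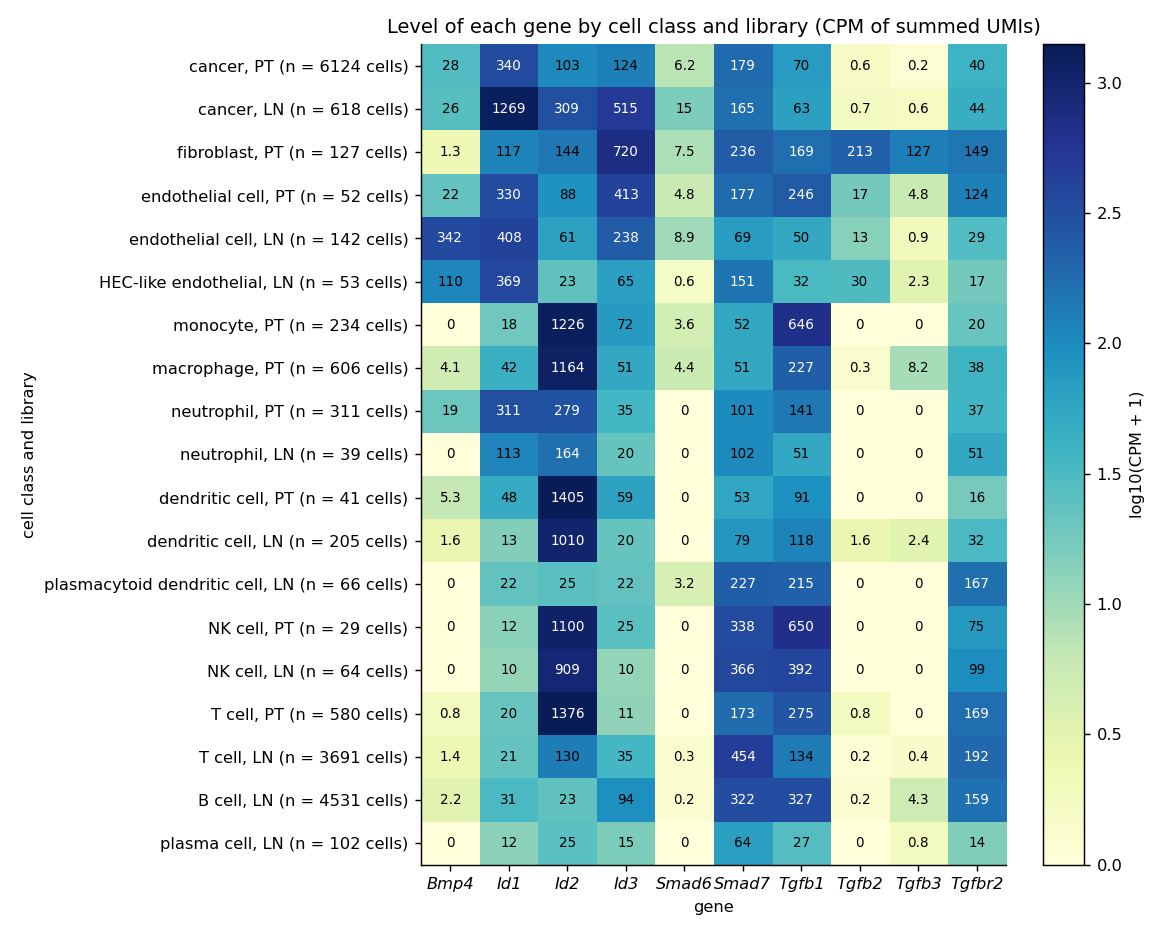
Level of the 10 genes, in CPM of summed UMIs, in every cell class and library with at least 20 cells, coloured by log10(CPM + 1), where PT is primary tumour, LN is lymph node and HEC is high endothelial cell. Id1 is highest in lymph node cancer cells at 1269 CPM, Id2 in dendritic cells and T cells of the primary tumour, Id3 in fibroblasts at 720 CPM, and Bmp4 in lymph node endothelial cells at 342 CPM.

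Bmp4 transcripts were most abundant in lymph node endothelial cells, at 342 CPM [317 to 368] (727 UMIs in 142 cells). High endothelial cell-like (HEC-like) cells of the lymph node, named from Glycam1, Chst4 and Fut7, followed at 109.6 CPM (189 UMIs in 53 cells). Cancer cells of both sites, at 28.3 and 26.1 CPM, and the 52 primary tumour endothelial cells, at 21.5 CPM (9 UMIs), came next and did not differ beyond their intervals. Bmp4 was at or below 5.34 CPM in every lymphoid class, dendritic cells, monocytes, macrophages and fibroblasts, and 7 UMIs gave 18.6 CPM in primary tumour neutrophils. The levels in lymph node endothelial and HEC-like cells were thus set apart beyond counting error, whereas further down each level overlapped its neighbour in the order.

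Within the lymph node endothelial cells the Bmp4 level was uneven. It was 449 CPM [415 to 484] in 45 cells of a subcluster that Bmp4 itself led, 125 CPM in 57 cells of another and 23.0 CPM (3 UMIs) in 30 cells of a further subcluster. Id1 went along, at 473, 121 and 23.0 CPM, and their median depths were 34590, 4471 and 2678 UMIs. In these 3 subclusters and in the HEC-like cells 0 UMIs of Cldn5, a tight junction gene of blood vessel endothelium, were found, and Vwf was at most 0.663 CPM. The 35 Cldn5 UMIs of the lymph node class lay in the remaining 10 cells, which shared subclusters with primary tumour cells. The summed level of 7 endothelial markers in lymph node subclusters, HEC-like cells included, was 614 to 1620 CPM, against 4941 CPM in the main primary tumour subcluster of 45 cells. The label endothelial therefore rests mainly on Egfl7, Emcn, Pecam1 and Cdh5 in the lymph node. The study methods mention that blood endothelial cells of metastatic lymph nodes were sorted in parallel, whereas the labels name no sort for these libraries.

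Different clusters held the endothelial cells of the sites, as cluster 12 had 52 primary tumour and 4 lymph node cells and cluster 24 had 0 and 191, HEC-like cells included. Against primary tumour endothelial cells, Bmp4 was 15.1-fold higher in the lymph node, a log2 ratio of 3.91 [3.06 to 5.13]. Tgfb1 was lower, at 50.3 CPM against 246 CPM, and so was Smad7, at 68.6 against 177 CPM. Of the 6 members with at least 100 UMIs in either library, 1 was at least 2-fold higher and 2 were lower, against 25.7% and 13.0% of 2977 genes. Tgfbr2 was at 28.7 against 124 CPM on 61 and 52 UMIs. Id1 was at 408 CPM [381 to 436] against 329.5 CPM [277 to 389], a log2 ratio of 0.30 [0.05 to 0.58]. As a mean of single-cell CPM the order turned, with 257 CPM in the lymph node and 407 CPM in the primary tumour. The keratins Krt8 and Krt18, which mark the cancer cells, summed to 117 CPM in these lymph node cells and 764 CPM in those of the primary tumour, and their part in the differences was not tested. A subcluster of 7 primary tumour and 6 lymph node cells, led by Tff2, Krt7, Krt18 and Krt8, was among these endothelial cells. In the main primary tumour subcluster of 45 cells both keratins summed to 322 CPM, with Bmp4 at 21.6 CPM (7 UMIs), Tgfb1 at 297 CPM and Smad7 at 192 CPM. In the 3 subclusters described above that held the other lymph node endothelial cells but 4, they summed to 7.66 to 32.0 CPM.

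Id1 was highest in lymph node cancer cells, and in each of the next 5 groups the interval overlapped that of its neighbour. These were lymph node endothelial cells (408 CPM), HEC-like cells (369) and, in the primary tumour, cancer cells (340.1), endothelial cells (329.5) and neutrophils (311). The order within these 5 depended on the processing, as lymph node endothelial cells were at 329 CPM with doublets kept, at 311 CPM with each library clustered on its own and at 257 CPM as a mean of single-cell CPM, where primary tumour cancer cells were at 331 CPM. In the HEC-like cells 1 cell held 394 of the 637 UMIs, and leaving it out gave 144 CPM. Among lymphoid classes Id1 ran from 10.5 to 31.1 CPM, below the levels of cancer and endothelial cells. The primary tumour neutrophils held 1592 CPM of the keratins Krt8 and Krt18 at a median of 730 UMIs per cell, against 3294 CPM in the cancer cells, and the part of cancer cell RNA in their Id1 level was not tested.

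Id2 had another distribution. It was highest in primary tumour dendritic cells at 1405 CPM [1240 to 1585], T cells at 1376, monocytes at 1226, macrophages at 1164 and NK cells at 1100 CPM, each overlapping its neighbour in that order. Dendritic cells (1010 CPM) and NK cells (909 CPM) of the lymph node followed. Lymph node cancer cells, at 309 CPM, were below all of these, and B cells (22.7) and HEC-like cells (22.6) were lowest. Among the unnamed primary tumour clusters, 146 cells led by Spic held 2153 CPM of Id2.

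Id2 was the member with the greatest distance between T cells of the sites, at 1376 CPM (1711 UMIs in 580 cells) in the primary tumour and 130.4 CPM (1661 UMIs in 3691 cells) in the lymph node, a log2 ratio of -3.40 [-3.50 to -3.30]. Different clusters held most T cells of the 2 libraries. In cluster 4, led by Cd8a and Cxcr6, Id2 was at 1409 CPM in 514 primary tumour cells and at 398 CPM in 49 lymph node cells. In cluster 7, led by genes of regulatory T cells such as Foxp3, it was at 1262 CPM in 42 and 271 CPM in 482 cells. Id2 was thus lower in lymph node T cells within both shared clusters, by less than over all T cells.

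Smad7 and Id3 were higher in lymph node than in primary tumour T cells, and Tgfb1 was lower. Smad7 was at 454 CPM against 173 CPM, a log2 ratio of 1.39 [1.19 to 1.59]. Id3 was at 34.8 against 11.3 CPM, a log2 ratio of 1.58 [0.86 to 2.51]. Tgfb1 was at 134 against 275 CPM, a log2 ratio of -1.04 [-1.20 to -0.86]. Of the 6 members with at least 100 UMIs in either library, 2 were at least 2-fold higher and 2 lower, against 5.97% and 19.8% of 7253 genes. Within cluster 4 Smad7 was at 225 CPM in the lymph node and 157 CPM in the primary tumour, and within cluster 7 the order turned, with 221 CPM [201 to 242] and 276 CPM [183 to 399], which overlap. The level of Smad7 was 497 and 561 CPM in the large lymph node clusters 17 and 18, which held 9 and 5 primary tumour cells.

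Id3 was highest in primary tumour fibroblasts at 720.4 CPM [663 to 782], then in lymph node cancer cells at 515, primary tumour endothelial cells at 413, lymph node endothelial cells at 238 and primary tumour cancer cells at 124 CPM. These 5 levels did not overlap. A further 83 primary tumour cells led by collagen genes, which stayed unnamed, held 521 CPM. B cells of the lymph node had 94.4 CPM, the highest Id3 level among lymphoid classes.

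Smad6 was low in all classes. Lymph node cancer cells held 14.7 CPM, lymph node endothelial cells 8.93 CPM (19 UMIs), fibroblasts 7.53 CPM (6 UMIs) and primary tumour cancer cells 6.18 CPM, and neighbours in this order overlapped. Smad7, by contrast, was highest in lymphoid cells, with lymph node T cells at 454, NK cells at 366 (lymph node) and 338 (primary tumour) and B cells at 322 CPM, and lowest in macrophages at 50.9 CPM. The brakes thus had different distributions, and Smad7 in cancer cells lay between these extremes.

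Of the TGF-beta ligand genes, Tgfb1 was found in every class. It was highest in primary tumour NK cells at 650.1 CPM (52 UMIs) and monocytes at 646 CPM, which overlapped, then in NK cells (392) and B cells (327) of the lymph node. Cancer cells, at 69.6 and 63.1 CPM, were in the lower part of the order. Tgfb2 was highest in fibroblasts at 213 CPM [183 to 248], with HEC-like cells at 29.6 CPM next and cancer cells below 1 CPM. Tgfb3 was likewise highest in fibroblasts, at 127 CPM [103 to 154], followed by macrophages at 8.20 CPM. The collagen-producing cells of the tumour thus held the highest levels of the less abundant ligand genes, whereas immune cells held the highest levels of Tgfb1.

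Tgfbr2 was highest in T cells, at 192 CPM in the lymph node and 169 CPM in the primary tumour, with plasmacytoid dendritic cells (167), B cells (159) and fibroblasts (149) close by and neighbours overlapping. Cancer cells, at 44.0 and 39.6 CPM, held less of the receptor gene than T cells of the same library. Plasma cells had the lowest level, at 14.1 CPM.

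The share of a gene's UMIs that lay in cancer cells differed between the libraries, as did the number of cancer cells. For Bmp4, 98.3% of the UMIs in kept primary tumour cells lay in cancer cells. In the lymph node library cancer cells held 35.6% of them and endothelial cells 49.0%. For Id1 these shares were 97.6% and 92.4% and for Smad6 94.3% and 91.7%. For Tgfb1 74.5% of primary tumour UMIs lay in cancer cells, and in the lymph node B cells held 44.7%.

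The genes most alike each member in level were found by Pearson correlation of log2(CPM + 10) over 16 class and library groups with at least 50 cells. These groups share 2 libraries and the correlations are a description without p. Id1 was nearest to Trip6, Cd151 and Me1 (r = 0.94 each), Id2 to Sema4a (0.92), Sh3bp1 and Ubash3b (0.87 each), and Id3 to Cnn3 (0.92), Csrp2 (0.91) and P4ha2 (0.88). Smad6 was nearest to Gipc1 (0.89), Rab5if (0.87) and Shc1 (0.83), and Smad7 to Swt1 (0.88), Ankrd10 and 9930021J03Rik (0.86 each). Bmp4 was nearest to Ahnak2 (0.94), Apol9b (0.93) and Apol9a (0.92). Tgfb1 was nearest to Il4ra and Gna13 (0.90 each) and Cbl (0.89), and Tgfbr2 to Ankrd17 (0.92), Arid1a and Brd9 (0.89 each). Tgfb2 (Tln2 at 0.99, Sulf1 and Ptprn at 0.98) and Tgfb3 (Cxcl14 at 0.99, Colec12 and Epb41l3 at 0.98) were followed by genes that share their peak in fibroblasts.

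A list of 71 other genes of the BMP and TGF-beta pathways was set beside the members in cancer cells. Of these, 40 had at least 100 UMIs in either library, with 4 at least 2-fold higher in the lymph node, 10 at least 2-fold lower and 29 below 0 on the log2 scale, where 62.4% of the 10740 genes lay. Their median log2 ratio was -0.48, against -0.18 over the 10740 genes, of which 4.64% were at least 2-fold higher and 9.43% at least 2-fold lower.

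Of the 4 higher genes, Pmepa1, a TGF-beta target gene whose product restrains Smad signalling, went from 1.16 CPM (113 UMIs) to 5.77 CPM (117 UMIs), a log2 ratio of 2.31 [1.92 to 2.69]. Atoh8, a target of BMP signalling in endothelium and liver, went from 7.89 CPM to 34.5 CPM, a log2 ratio of 2.13 [1.98 to 2.28]. Eng, a co-receptor of the family, had a log2 ratio of 1.48 and Itgb6, an integrin chain that takes part in activation of latent TGF-beta, 1.04. Nbl1, a BMP antagonist, was just below 2-fold at 0.95. These genes were at low levels, and at most 1 other pathway gene was 2-fold higher in the shared clusters alone, outside cluster 23, or in S or G2M cells.

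Among the lower genes, the matrix gene Ccn2 went from 290.3 CPM to 85.7 CPM, a log2 ratio of -1.76 [-1.83 to -1.69]. Smad5, a signal carrier of the BMP branch, went from 71.6 to 26.0 CPM, a log2 ratio of -1.46 [-1.59 to -1.33]. Tgfbi (-1.60, on 123 and 8 UMIs), the repressor gene Tgif1 (-1.36) and the antagonist gene Chrd (-1.34, on 309 and 25 UMIs) made up the 5 lowest. Other lower genes included the type I receptor gene Acvr1 (-1.32), Smurf1 (-1.29), Thbs1 (-1.27) and Ldlrad4 (-1.20).

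The counts by role below are of genes that reached 100 UMIs in a library, and the shares over all 10740 genes that did so were 4.64% at least 2-fold higher, 9.43% at least 2-fold lower and 62.4% below 0. The lists hold 1 to 10 such genes each, and nothing particular to a list is read from its count. The 9 other Smad genes and their brakes were all below 0, with 2 of them at least 2-fold lower and a median of -0.51, and Smad4 was the most abundant at 106 and 85.5 CPM. Of 10 TGF-beta target genes, which include Ski, Skil and Smad3 of the Smad list, 5 were lower and 1 higher, with a median of -1.0. Among 6 BMP receptor genes 1 was higher and 1 lower, with the type II receptor gene Bmpr2 at 86.3 and 62.4 CPM. Of 4 other BMP and growth differentiation factor genes 0 passed 2-fold, the most abundant being Gdf15, a distant member of the family that is no BMP ligand, at 166 and 102 CPM. Bmp7 was at 10.2 and 13.2 CPM. Of the partners of Id proteins, Tcf4 was at 284 and 289 CPM, a log2 ratio of 0.03 [-0.02 to 0.07]. Tcf3 had a log2 ratio of -0.39 [-0.50 to -0.29] and Tcf12 of -0.48 [-0.61 to -0.36].

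The 4 BMP antagonist genes had a median of -0.78, with Fst, which encodes follistatin, at 283 and 188 CPM. Of the 2 other receptor genes, Tgfbr1, which encodes the partner of the Tgfbr2 product, was at 16.7 and 9.02 CPM. Of 4 genes of TGF-beta latency and activation, Thbs1, which encodes an activator of latent TGF-beta, was the most abundant at 338 and 140.0 CPM. Atoh8 was the only BMP target gene other than the members that reached 100 UMIs. Genes named here as TGF-beta targets respond to other signals as well, and the lists were drawn up with earlier results of these data known.

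**Figure D5:**
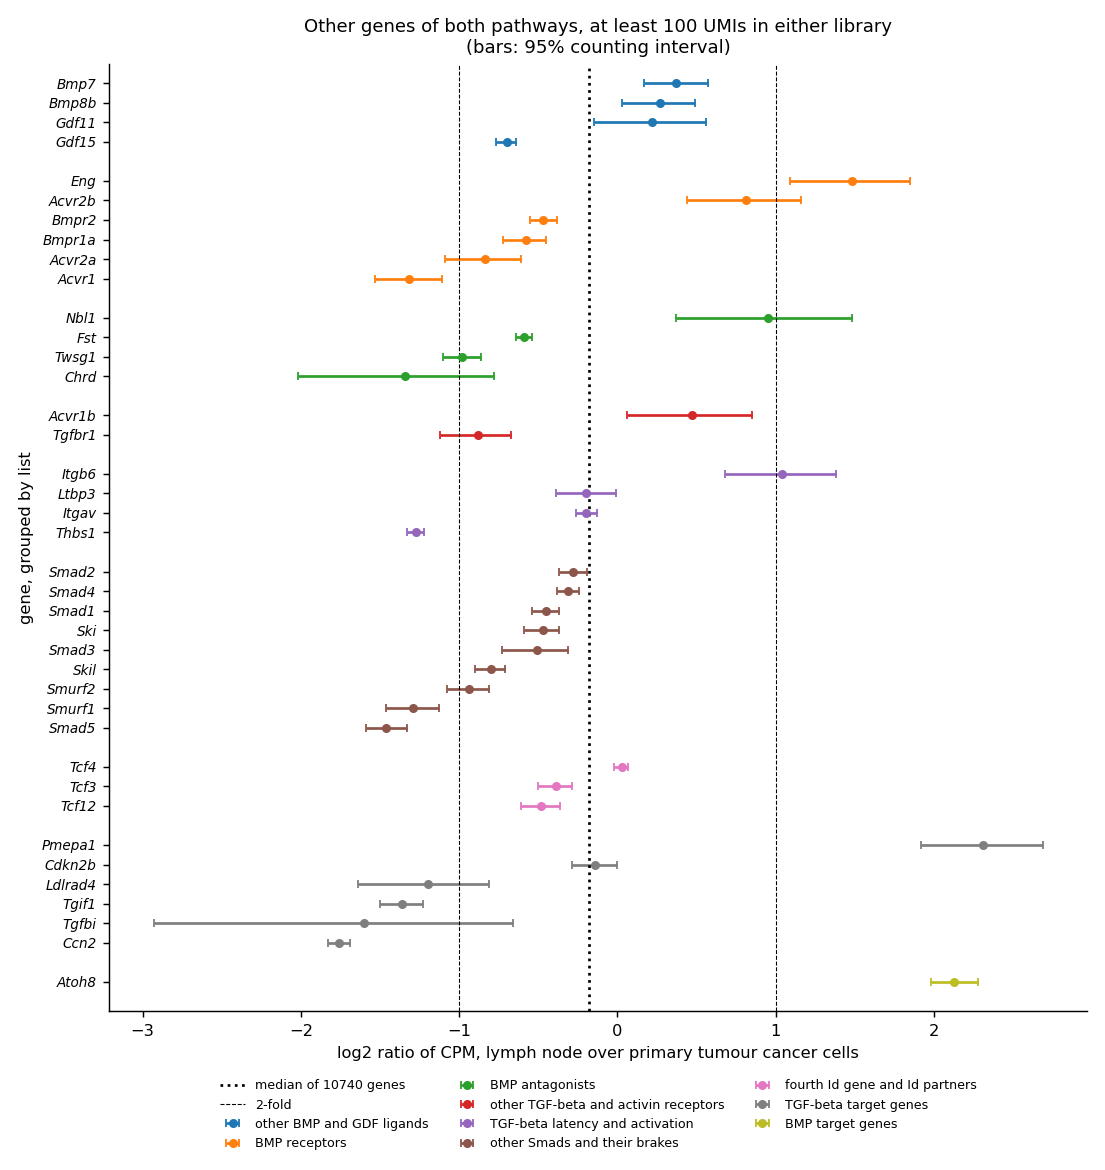
Log2 ratio of CPM in cancer cells, lymph node over primary tumour, for 39 of the 40 other pathway genes that reached 100 UMIs in a library, grouped by list, with bars for the 95% counting interval and a dotted line at the median of 10740 genes (-0.18). Pmepa1, Atoh8, Eng and Itgb6 lie at or above 1, 9 of the genes shown lie at or below -1, and all 9 genes of the Smad list lie below 0.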

How the data were processed

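Single-cell RNA of 1 primary tumour and 1 lymph node library was analysed. The authors deposited whole-number UMI counts for each gene and cell, made with Cell Ranger (5.0.0 in the file headers, 2.1.1 in the submitters' processing notes) on GRCm38. The counts were not normalised, and no file gives cell types.

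The members, gene lists and markers were chosen with earlier results of these data known, and the scoring rule that names clusters was set after the data were seen. The limits of the study methods were applied, so that a cell needed over 200 detected genes, no more than 6000, and a mitochondrial share of UMIs up to 5%. Scrublet (expected rate 6%, 30 components) removed 391 primary tumour cells (4.27%) by its automatic threshold, and in the lymph node, where that threshold marked too few, the 616 cells (5.98%) that scored past percentile 94. After scaling to 10000 counts and taking logs, 2000 variable genes were picked in each library without the members and lists, and cell cycle scores (Seurat 5.3.0 lists) were regressed out. Leiden clusters were made on 30 components and 15 neighbours at resolution 1.0, with seed 1. A name needed at least 3 raised markers and no stronger second class.

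CPM are of UMIs summed per class and library with at least 20 cells, with exact 95% Poisson intervals. Shares use Clopper-Pearson intervals on the number expected after thinning to 1000 UMIs. Log2 ratios add 0.5 count, with exact intervals from the binomial split of both counts. The ratio intervals were checked on simulated Poisson counts, and the thinning formula against random draws. The intervals of CPM and of shares were not checked in this way. Besides the members, the text names the 5 other pathway genes with the highest and the 5 with the lowest log2 ratio among those with at least 100 UMIs, the most abundant gene of each list, and 3 genes alike per member with at least 50 CPM in a group. The 3 further genes named past 2-fold, and cluster leading genes, were named after their values were seen. The alternatives were doublets kept, other cell limits, separate clustering, another choice of cancer cells, only cancer cells with 10000 to 60000 UMIs, shared clusters, means of single cells, a median-centred scale, leaving out the top cell and a minimum of 20 UMIs. Cell cycle classes and leaving out cluster 23 were added after the data were seen. 1 pathway gene enters the counts but is not reported here by itself. Software was scanpy 1.11.5, scipy 1.17.1, anndata 0.12.19, numpy 2.4.6, igraph 0.11.9, pandas 2.3.3, matplotlib 3.10.9, scikit-learn 1.9.0 and python 3.11.15.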

Additional observations from a re-analysis of the deposited data

Results flagged for a closer look

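Id1 went opposite ways in neutrophils and in cancer cells. It was lower in the lymph node in neutrophils, with a log2 ratio of -1.41 [-2.51 to -0.57], while the log2 ratio in cancer cells was 1.90. Its levels in neutrophils were 311 CPM (117 UMIs in 311 cells) in the primary tumour and 113 CPM (11 UMIs in 39 cells) in the lymph node. In the lymph node 1 cell held 5 of these UMIs, and the level was 64.3 CPM without it. Over 546 genes in neutrophils the median log2 ratio was -0.47, with 67.2% below 0. The keratins Krt8 and Krt18 summed to 1592 CPM in primary tumour neutrophils and 41.0 CPM in lymph node neutrophils, at median depths of 730 and 1985 UMIs, and the part of cancer cell RNA in these Id1 levels was not tested. The difference between the neutrophil and cancer cell ratios was not tested.

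Id2 was lower in lymph node T cells, with a log2 ratio of -3.40, and higher in lymph node cancer cells, with a log2 ratio of 1.59. The difference between these ratios was not tested. The same direction of Id2 was seen in T cells of clusters 4 and 7, each of which held cells of both libraries.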

How the results depend on the processing

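No paired analysis was possible because each group had 1 pooled library. Of 130 ratios of members under the alternatives, 79 moved by less than their counting interval and 49 moved further. The sign of Bmp4, Smad7 and Tgfb1, which stood near 0, was not stable, nor was that of the sparse Tgfb2, which ran from -0.97 with cancer cells chosen by keratins to 2.00 over the shared clusters. The remaining 2 had passed 2-fold and turned their sign. Without cluster 23, which left 108 lymph node cancer cells, Id1 was at -0.43 and Smad6 at -0.01. Of 79 levels by class, 61 moved by less than their interval. The count of members at least 2-fold higher in lymph node cancer cells was 1 in place of 5 over the shared clusters (91 lymph node cells) and 2 without cluster 23. The 1 was Tgfb2 (2.00) and the 2 were Tgfb2 (1.62) and Tgfb3 (1.96), so that none of Id1, Id2, Id3 and Smad6 passed 2-fold in these settings. The count of other pathway genes at least 2-fold higher was 1 in place of 4 over the shared clusters, 2 in G1 cells, 1 in S or G2M cells and 1 without cluster 23. The count of those at least 2-fold lower was 6 in place of 10 over the shared clusters and 6 without cluster 23. In each of these settings fewer cells were counted, and what else moved the counts was not tested. No member was 2-fold lower under any alternative tried.

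The limit of 6000 detected genes bears on the lymph node most, where 1309 cancer cells remained without it, against 6741 in the primary tumour, and the log2 ratios were then 1.90 for Id1, 1.73 for Id2, 2.15 for Id3 and 1.39 for Smad6. In lymph node endothelial cells Bmp4 fell from 342 CPM to 255 CPM with doublets kept and to 295 CPM with separate clustering, and Id1 from 408 CPM to 329 and 311 CPM. Depth limits Tgfb2, Tgfb3 and Smad6, and all intervals leave out variation between mice.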
